A study of Homo sapiens with 6 samples.

Results

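Heat shock proteins and cytosolic chaperones were examined as a set of 10 genes in BxPC-3, a long-established cell line derived from a human pancreatic cancer. The genes were taken by symbol (HSPA1A, HSPA1B, HSPA8, HSPH1, HSP90AA1, DNAJB1, BAG3, HSPB1, HSPD1 and HSPE1), and all 10 were found among the 26255 gene symbols of each file. RNA-seq was performed in 6 libraries from 3 groups of 2. The parent cells received no treatment, the NC cells received a negative control duplex (labelled NC-1), and the treated cells received miR-4711-5p, a microRNA. The transfected cells were sampled 36 h after transfection, and the sampling time of the parent cells is not given in the sources used here. The question addressed was how the mRNA of these chaperones stood in cells in which the mRNA of PSMB6, a catalytic subunit of the 20S proteasome, was reduced.

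Chaperones bind unfolded or partly folded proteins and keep them from aggregating. HSP70 proteins do so in cycles driven by ATP, in which J-domain proteins such as DNAJB1 start the cycle and nucleotide exchange factors such as HSPH1 and BAG3 end it, while HSP90 acts later on partly folded clients. When unfolded proteins accumulate, for example during heat shock or inhibition of the proteasome, the transcription factor HSF1 is released from chaperones, binds heat shock elements and induces many of these genes. HSPD1 (HSP60) and its lid HSPE1 (HSP10) form the chaperonin of the mitochondrial matrix, so that the set holds these mitochondrial proteins besides cytosolic ones.

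The values were FPKM, fragment numbers corrected for exon length and library size, which allows levels to be compared between genes. The depth in reads was unknown, since FPKM hides it. The relative depth against the parent 1 library was read from the steps between low values. It was 0.873 in parent 2, 0.751 and 0.857 in NC, and 1.08 and 1.21 with miR-4711-5p. Summed FPKM was 550772 and 543074 in parent, 515688 and 515348 in NC, and 493145 and 499659 with miR-4711-5p. Both measures thus differed between the groups without overlap, and the part of either in the results was not tested. Of the markers of pancreatic cell types, the 5 of ductal epithelium (KRT7, KRT8, KRT18, KRT19 and EPCAM) were at 91.6 FPKM or above in every library, whereas INS, GCG and SST of islet cells and CELA3A of acinar cells were listed at 0 in all 6. The largest value of any acinar, leukocyte, fibroblast or endothelial marker was 5.10 FPKM (PRSS1). The summed level of the 3 acinar markers was 0.730 to 1.57 FPKM in parent, 2.62 to 2.73 in NC and 3.18 to 5.10 with miR-4711-5p, and that of the 3 endothelial markers was 1.33 to 1.39, 3.23 to 3.53 and 0.649 to 0.775 FPKM. Their part in the results was not tested. The labels did not say whether the 2 libraries of a group came from separate cultures, so p-values measured only the spread between these libraries, which may be technical.

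PSMB6 mRNA was examined first. It stood at 183 and 171 FPKM in parent, 154 and 165 FPKM in NC and 36.8 and 40.2 FPKM after miR-4711-5p treatment. Both treated libraries were thus far below all 4 control libraries. The mean was 4.60-fold lower than in parent (limma log2 fold change -2.17, SE 0.06, adjusted p = 3.30e-06) and 4.14-fold lower than in NC (-2.02, adjusted p = 3.75e-06).

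The mature microRNA and the sites that pair with its seed are shown next, since a member with such a site could be bound by the microRNA itself. The mature sequence (RefSeq, GRCh38.p14, chr1:59733269-59733291, minus strand) has its seed, positions 2 to 8, in capitals. In the site sequences below it, read from GRCh37 with the GENCODE v44 annotation lifted to that build, capitals mark the bases that pair with the seed, and the final capital A of the 8mer is the base opposite position 1.
hsa-miR-4711-5p: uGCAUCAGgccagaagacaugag
PSMB6 site, 8mer, chr17:4701756-4701763, plus strand: atgccctgtaCTGATGCAaaatttaata
DNAJB1 site, 7mer-m8, chr19:14625590-14625596, minus strand: gcattaaagaCTGATGCtaaacctca
HSPH1 site, 7mer-m8, chr13:31709846-31709852, minus strand: ttcctcagctCTGATGCttcctgggtg

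All of these sites lay in annotated 3′ UTRs. DNAJB1 and HSPH1 were the members for which at least 1 annotated 3′ UTR held a site, where 8mer (CTGATGCA), 7mer-m8 (CTGATGC) and 7mer-A1 (TGATGCA) sites were searched. The HSPH1 site was in 2 of 5 coding transcripts, the canonical one included, at base 1603 of a 3′ UTR of 2345 bases. The DNAJB1 site was in 8 of 20 coding transcripts, at base 1156 of the 1171 bases of the canonical 3′ UTR, and was not in the longest one. Counted in the longest 3′ UTR, 1 member (HSPH1) had a site, and so did 18.5% of the 10593 tested genes with a 3′ UTR. A match describes the sequence and does not show that the site was bound.

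Heat shock elements were then searched in the 250 bases before each annotated start, since HSF1 acts through them. The motif was GAANNTTC or TTCNNGAA, which can overlap, and both strands were covered because each is its own reverse complement. It was found in a promoter of 7 of the 10 members, and in 11.6% of the 35116 promoters in the RefSeq table (14.0% of 27305 genes). The windows that hold the motifs are given below from GRCh38.p14, 5′ to 3′ on the strand of the gene, with the motifs in capitals.
HSPA1A, chr6:31815407-31815474, plus: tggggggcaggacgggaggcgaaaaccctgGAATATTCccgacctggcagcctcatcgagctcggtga
HSPA1B, chr6:31827603-31827670, plus: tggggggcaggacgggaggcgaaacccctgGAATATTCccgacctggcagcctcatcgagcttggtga
DNAJB1, chr19:14518407-14518504, minus: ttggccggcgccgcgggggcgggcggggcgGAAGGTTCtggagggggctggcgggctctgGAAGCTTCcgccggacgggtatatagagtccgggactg
HSP90AA1, chr14:102087075-102087162, minus: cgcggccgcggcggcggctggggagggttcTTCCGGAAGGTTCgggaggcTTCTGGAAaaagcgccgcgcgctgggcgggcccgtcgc
HSPA8, chr11:123062149-123062221, minus: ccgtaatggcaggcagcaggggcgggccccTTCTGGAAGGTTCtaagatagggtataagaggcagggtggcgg
HSPD1, chr2:197500038-197500090, minus: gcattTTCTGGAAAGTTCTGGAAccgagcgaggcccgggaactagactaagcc
HSPB1, chr7:76302461-76302528, plus: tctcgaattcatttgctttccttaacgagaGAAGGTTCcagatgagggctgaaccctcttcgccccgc

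HSPA8 had another pair of overlapping motifs farther from its start, not printed. At least 3 alternating units in a row stood in the promoters of 3 members (HSP90AA1, HSPA8 and HSPD1), against 0.557% of all genes in the table. The windows of HSPA1A and HSPA1B differed at 2 of 68 bases. No match was found in the windows of HSPH1, HSPE1 and BAG3, which says only that these letters are not there. The HSPE1 window was chr2:197500129-197500378 on the plus strand. The motifs printed for HSPD1 thus lay upstream of the HSPE1 start as well, outside the bases searched for HSPE1.

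In parent cells the members ranged from 1037 ± 4.57 FPKM (HSPA8, the constitutive cytosolic HSP70; mean ± SD, n = 2) to 32.4 ± 0.779 FPKM (HSPA1B, a stress-inducible HSP70). The order of levels was HSPA8, HSP90AA1, HSPB1, HSPD1, HSPE1, BAG3, DNAJB1, HSPH1, HSPA1A and HSPA1B, and no neighbours in it overlapped between the 2 parent libraries. HSPA8 was at place 80 and HSPA1B at place 2858 among all symbols. The 10 genes together made up 0.634% and 0.641% of the FPKM of the parent libraries, 0.576% and 0.584% in NC, and 0.572% and 0.590% with miR-4711-5p. This share was higher in both parent libraries than in the 4 transfected ones.

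**Figure D1:**
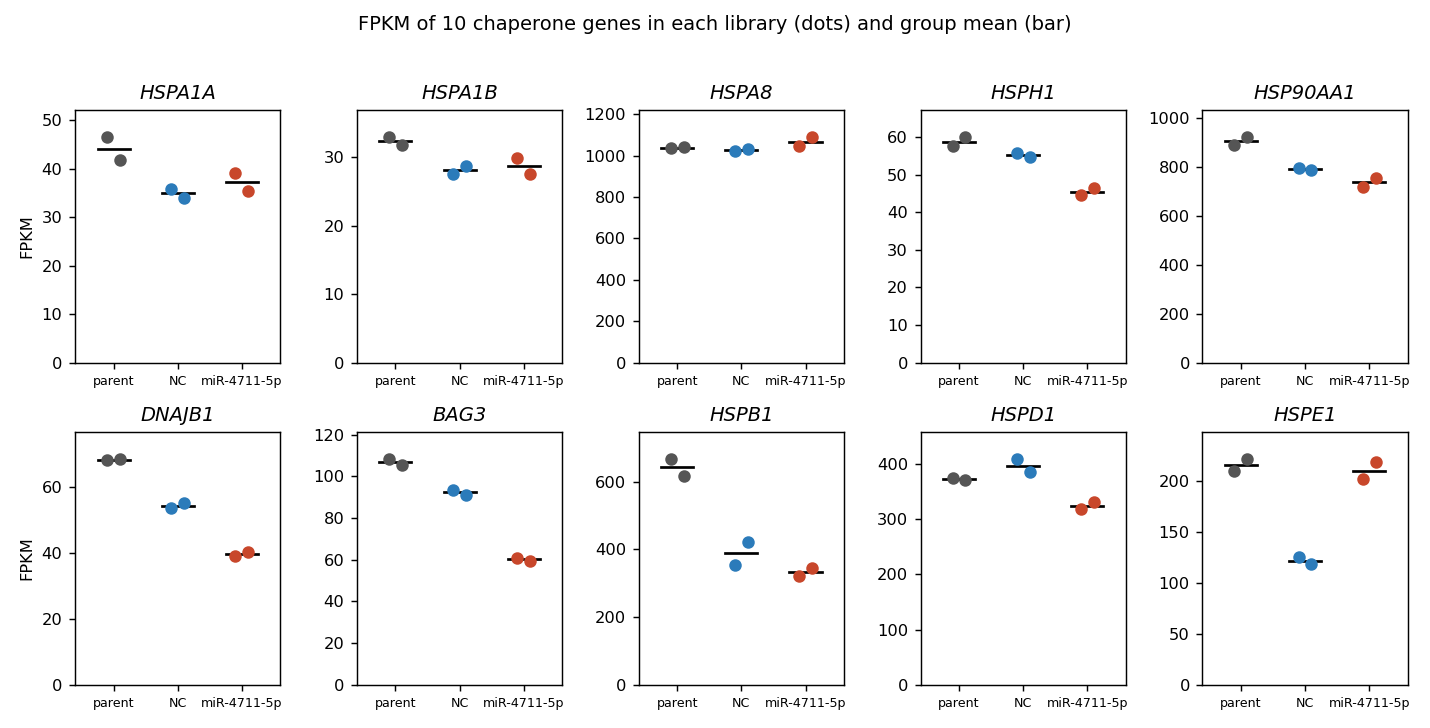
FPKM of the 10 genes in each library, 1 panel per gene with its own axis from 0; dots are libraries and bars the mean of the 2 libraries of a group. DNAJB1 and BAG3 step down from parent to NC to miR-4711-5p, HSPB1 is low in both transfected groups, and HSPE1 is low in NC (125 and 119 FPKM) and not with miR-4711-5p (202 and 219 FPKM).

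Against parent, 8 of the 10 members were lower with miR-4711-5p and none was higher by limma (0 members also at an unadjusted p under 0.05). The 2 that were not called were HSPA8 and HSPE1. Over all 12040 genes tested, 24.7% were called lower and 18.7% higher. The median log2 fold change of the members was -0.27, beside -0.01 over all genes. Between miR-4711-5p and NC, 4 members were lower (DNAJB1, HSPH1, HSPD1 and BAG3) and 1 was higher (HSPE1), with 21.2% of all genes called lower and 18.4% higher, and the median was -0.16, beside 0.00 over all genes. NC itself was below parent for 7 members and above it for none, with 15.1% of all genes called lower and 12.1% higher, and the median was -0.20, beside -0.01. At an unadjusted p under 0.05, 0 members were above parent in NC as well.

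Each library enters more than 1 of these comparisons, so they are not independent of each other. The member counts depended on single libraries: without parent replicate 1, 5 members were called lower against parent (DNAJB1, HSPH1, HSP90AA1, BAG3 and HSPB1). The count of NC against parent went from 7 to 3 without parent replicate 1, to 3 without NC replicate 2 and to 4 without NC replicate 1. When each library was divided by its summed FPKM, the median of all genes moved from -0.01 to 0.12 against parent, and the split of all called genes turned from 2255 higher and 2975 lower to 4014 higher and 1783 lower. On that scale 5 members were lower and 1 (HSPA8) was higher after miR-4711-5p treatment than in parent. The other scaling, median of ratios, divided each library by its median ratio to the geometric mean of all libraries, with factors from 0.999 to 1.01. It gave 2449 higher and 2772 lower among all genes against parent, and 0 higher and 7 lower among the members.

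**Figure D2:**
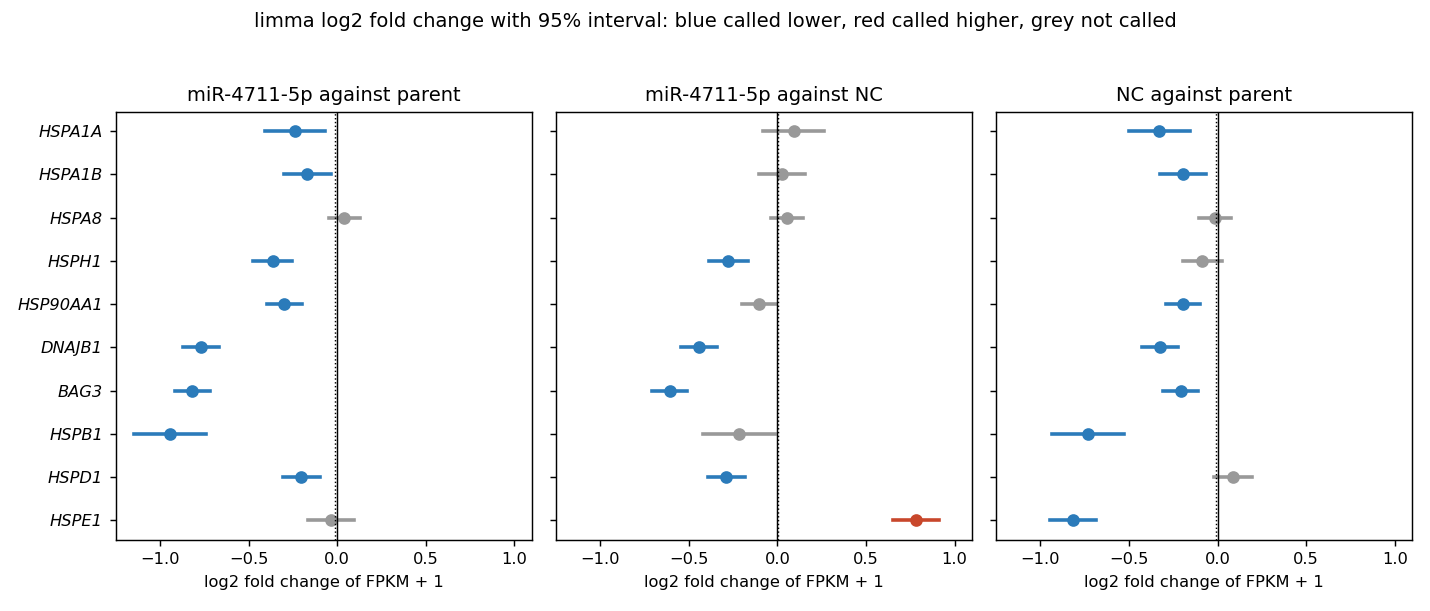
limma log2 fold changes of FPKM + 1 for the 10 genes in the 3 comparisons, with 95% intervals (dots and lines; 2 libraries per group); the solid line is 0 and the dotted line the median of all tested genes. In the comparison with parent the 8 called genes lie between -0.94 (HSPB1) and -0.17 (HSPA1B), and in the comparison with NC HSPE1 is called higher at 0.78.

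DNAJB1 and BAG3, both co-chaperones of HSP70, showed the largest decreases among the members called lower against both controls. BAG3 couples HSP70 to selective autophagy as well. It was at 108 and 106 FPKM in parent, 93.5 and 91.2 FPKM in NC and 61.0 and 59.6 FPKM after miR-4711-5p treatment, so that the 3 groups did not overlap. Treated cells held 57.0% and 55.7% of the parent mean. BAG3 was 1.77-fold lower than in parent (log2 fold change -0.82, adjusted p = 1.47e-05) and 1.53-fold lower than in NC (-0.61, adjusted p = 6.15e-05), which put it at place 297 and place 573 from the lowest of 12040 genes.

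DNAJB1, the J-domain protein that delivers substrates to HSP70, was at 68.1 and 68.3 FPKM in parent, 53.5 and 55.1 FPKM in NC and 39.1 and 40.1 FPKM after miR-4711-5p treatment. The groups were again apart, in the same order as for BAG3. The log2 fold change was -0.77 against parent (1.72-fold lower, adjusted p = 2.18e-05) and -0.44 against NC (adjusted p = 0.000303), and NC was lower than parent by limma (-0.32, adjusted p = 0.00331). DNAJB1 has 1 of the seed sites and a pair of heat shock element motifs shown above, while BAG3 has neither in the windows searched.

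BAG3 was lower in NC than in parent as well (log2 fold change -0.21, adjusted p = 0.0122), but this call was lost without parent replicate 1 (adjusted p = 0.0627), without NC replicate 2 (0.0517) and on the scale of summed FPKM (0.0650). The calls of DNAJB1 in all 3 comparisons, and those of BAG3 with miR-4711-5p, held with each library left out and under every other scaling, filter, pseudocount and fit that was run.

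HSPH1 (HSP110), which releases nucleotide from HSP70 and takes part in disaggregation, was at 57.6 and 59.9 FPKM in parent, 55.9 and 54.8 FPKM in NC and 44.5 and 46.4 FPKM after miR-4711-5p treatment. Both treated libraries were below the 4 control libraries. The log2 fold change was -0.36 against parent (adjusted p = 0.000917) and -0.28 against NC (adjusted p = 0.00338), and the difference between NC and parent was not called (-0.09, adjusted p = 0.211). HSPH1 carries the 7mer-m8 site printed above.

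HSPB1 (HSP27), a small heat shock protein that holds unfolded proteins without ATP, had the lowest log2 fold change of the members against parent. It was at 666 and 618 FPKM in parent, 353 and 423 FPKM in NC and 321 and 345 FPKM after miR-4711-5p treatment. All 4 transfected libraries were below both parent libraries, at between 50.1% and 65.9% of the parent mean. HSPB1 was 1.93-fold lower after miR-4711-5p treatment than in parent (log2 fold change -0.94, SE 0.09, adjusted p = 0.000198) and 1.66-fold lower in NC than in parent (-0.73, adjusted p = 0.00224).

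Between miR-4711-5p and NC, HSPB1 differed by -0.21 on the log2 scale, which was not called (adjusted p = 0.0876). The 2 NC libraries were 353 and 423 FPKM, and without NC replicate 1 the difference was -0.34 and passed the threshold (adjusted p = 0.0173). HSPB1 has a short canonical transcript of 777 bases. In NC against parent, the 338 genes with canonical transcripts of up to 800 bases had a median log2 fold change of -0.15 and a 5th percentile of -0.55, whereas the median of the 5504 genes above 3200 bases was 0.04. The change of HSPB1 was below that percentile, and the part of transcript length in it was not tested.

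The stress-inducible HSP70 genes HSPA1A and HSPA1B encode nearly the same protein from neighbouring genes on chromosome 6, so reads could be shared between them, and their separate values are uncertain. HSPA1A was at 46.5 and 41.8 FPKM in parent, 35.9 and 34.0 FPKM in NC and 39.2 and 35.4 FPKM after miR-4711-5p treatment. HSPA1B was at 32.9 and 31.8 FPKM in parent, 27.6 and 28.7 FPKM in NC and 29.9 and 27.6 FPKM after miR-4711-5p treatment. For both genes parent was above the 4 transfected libraries, and the ranges of NC and miR-4711-5p overlapped.

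Against parent, the log2 fold change with miR-4711-5p was -0.24 for HSPA1A (adjusted p = 0.0344) and -0.17 for HSPA1B (adjusted p = 0.0458). Against NC it was 0.09 (95% interval -0.08 to 0.26) and 0.03 (-0.10 to 0.16), and neither was called (adjusted p = 0.349 and 0.731). In NC the 2 genes were lower than in parent (-0.33 and -0.19, adjusted p = 0.0173 and 0.0403). Summed as 1 gene, the pair had a log2 fold change of -0.21 after miR-4711-5p treatment against parent (adjusted p = 0.0270). The call of HSPA1A with miR-4711-5p against parent was lost without parent replicate 1 (adjusted p = 0.173), without miR-4711-5p replicate 2 (0.193), without NC replicate 1 (0.0523) and without NC replicate 2 (0.0519). The call of HSPA1B was lost with any 1 library left out (adjusted p from 0.0554 to 0.238), as was its call in NC (0.0552 to 0.158). That of HSPA1A in NC was lost without parent replicate 1 (0.0971), without NC replicate 1 (0.0577) and without NC replicate 2 (0.0876). On the scale of summed FPKM neither was called after miR-4711-5p treatment against parent (adjusted p = 0.289 and 0.671), and in NC HSPA1A was still called (0.0439) and HSPA1B was not (0.189). Neither was called with miR-4711-5p against parent with no filter on low values (adjusted p = 0.0790 and 0.0688) or with only the 2 groups compared (0.0521 and 0.0599). HSPA1B also lost this call with median-of-ratios scaling (0.0671). With no filter both lost their calls in NC (0.0525 and 0.0698).

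HSPA8 and HSP90AA1 were the most abundant members. HSPA8 was at 1034 and 1041 FPKM in parent, 1022 and 1031 FPKM in NC and 1046 and 1088 FPKM after miR-4711-5p treatment. The 6 values lay within 98.5% to 105% of the parent mean. No comparison was called (adjusted p from 0.279 to 0.793), and the 95% interval of the log2 fold change against parent was -0.05 to 0.13. On the scale of summed FPKM HSPA8 was higher after miR-4711-5p treatment than in parent (log2 fold change 0.18, adjusted p = 0.00450) and than in NC (0.11, adjusted p = 0.0354). As deposited, these log2 fold changes were 0.04 and 0.06, so the calls, and not the direction, rest on the scaling.

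HSP90AA1, the inducible cytosolic HSP90, was at 892 and 922 FPKM in parent, 797 and 788 FPKM in NC and 720 and 755 FPKM after miR-4711-5p treatment. The groups did not overlap and stood in the order parent, NC and miR-4711-5p. It was lower after miR-4711-5p treatment than in parent (log2 fold change -0.30, adjusted p = 0.00131), and the difference from NC was not called (-0.10, adjusted p = 0.0859). NC was lower than parent (-0.19, adjusted p = 0.0152). That last call was lost without parent replicate 1 or 2 (adjusted p = 0.0582 and 0.0828), without NC replicate 1 or 2 (0.0560 and 0.0600) and on the scale of summed FPKM (0.0758).

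HSPD1 and HSPE1 encode the subunits of one chaperonin and lie next to each other in opposite directions on chromosome 2 (GRCh37, HSPD1 at 198351308 to 198381461 on the minus strand and HSPE1 at 198364864 to 198368173 on the plus strand), where the annotated transcripts overlap. HSPD1 was at 374 and 372 FPKM in parent, 408 and 385 FPKM in NC and 318 and 330 FPKM after miR-4711-5p treatment. The treated libraries were the lowest of the 6. The log2 fold change was -0.29 against NC (adjusted p = 0.00233) and -0.20 against parent (adjusted p = 0.00983). The call against parent was lost without parent replicate 1 (adjusted p = 0.0543), without miR-4711-5p replicate 1 (0.0789) and on the scale of summed FPKM (0.249), on which NC was called above parent (0.17, adjusted p = 0.0225).

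HSPE1 went another way. It was at 210 and 222 FPKM in parent, 125 and 119 FPKM in NC and 202 and 219 FPKM after miR-4711-5p treatment. Both NC libraries were below the other 4, and the parent and miR-4711-5p ranges overlapped. HSPE1 was 1.77-fold lower in NC than in parent (log2 fold change -0.82, adjusted p = 0.000419), at place 66 from the lowest of 12040 genes, and 1.72-fold higher after miR-4711-5p treatment than in NC (0.78, adjusted p = 7.03e-05), at place 239 from the highest. The difference from parent was -0.04 with a 95% interval from -0.17 to 0.09 (adjusted p = 0.634), and became 0.10 on the scale of summed FPKM (adjusted p = 0.153).

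The ratio of HSPD1 to HSPE1 FPKM was therefore 1.78 and 1.68 in parent, 3.26 and 3.23 in NC, and 1.57 and 1.51 with miR-4711-5p. The NC libraries stand apart in this ratio from the other 4. HSPE1 has the shortest canonical transcript of the members, at 557 bases, and its decrease in NC was below the 5th percentile of genes up to 800 bases (-0.55). In the comparison of miR-4711-5p with NC these short genes had a median of 0.00 and a 95th percentile of 0.59, which the HSPE1 value exceeded. The part of transcript length in either was not tested. The readthrough transcript HSPE1-MOB4 was at 0.225 FPKM or less in every library, and MOB4 itself lay between 12.4 and 14.9 FPKM. The annotation lists 26 pseudogenes named after HSPE1, 18 of HSPD1, 17 of HSPA8 and 2 each of DNAJB1 and HSPB1. Reads shared with these could not be told apart from reads of the genes themselves.

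The genes around the members were read from 11 lists of 130 other genes, of which 120 had a mean of at least 1 FPKM and were tested. With miR-4711-5p, 26 of these were above parent and 33 below it, and 42 were above NC and 18 below it. NC against parent gave 8 higher and 29 lower. Over all 12040 genes tested, 18.7% were called higher and 24.7% lower with miR-4711-5p against parent. Against NC these shares were 18.4% and 21.2%, and in NC against parent 12.1% and 15.1%. The counts of each list below are to be read beside these shares. The split against parent depended on the scale, since dividing by summed FPKM gave 53 higher and 14 lower, and in NC against parent 12 higher and 11 lower. Median-of-ratios scaling gave 31 higher and 30 lower against parent, and 9 higher and 26 lower in NC against parent. The counts against parent were 35 without parent replicate 1, 39 without parent replicate 2, 30 without miR-4711-5p replicate 1 and 31 without miR-4711-5p replicate 2, and against NC they were 33 and 30 without miR-4711-5p replicate 1 and 2.

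The heat shock factors HSF1, HSF2 and HSF4 and their binding protein HSBP1 gave 1 higher (HSF4) and 1 lower in each of the comparisons with miR-4711-5p. The lower gene was HSF1 against parent and HSBP1 against NC (log2 fold change -0.18, adjusted p = 0.0476). On the scale of summed FPKM, 2 were higher and 0 lower in each. HSF1, the factor that drives the heat shock response, was at 53.0 and 49.9 FPKM in parent, 45.5 and 52.7 FPKM in NC and 43.7 and 42.6 FPKM after miR-4711-5p treatment. It was lower than in parent (log2 fold change -0.25, adjusted p = 0.0294) and not called against NC (-0.18, adjusted p = 0.0893), and the call was lost on the scale of summed FPKM (adjusted p = 0.239). HSF4, a factor best known in the lens, was low throughout, at 0.933 ± 0.0718 FPKM in parent, 1.38 ± 0.0696 FPKM in NC and 2.06 ± 0.0294 FPKM after miR-4711-5p treatment (mean ± SD, n = 2), and was higher than in both (0.66 and 0.36 on the log2 scale, adjusted p = 0.00268 and 0.0343). HSF2 was not called in either comparison (0.25 and 0.34, adjusted p = 0.115 and 0.0504), and was called higher in both on the scale of summed FPKM (adjusted p = 0.0319 and 0.0307).

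Of the 9 other HSP70 and HSP110 genes, 4 were tested, and HSPA6, a strictly stress-inducible HSP70, was below the limit with at most 0.492 FPKM in any library. HSPA13, a membrane-bound HSP70 relative, was higher after miR-4711-5p treatment than in parent (log2 fold change 0.75, adjusted p = 0.000230) and than in NC (0.27, adjusted p = 0.0222), and HSPA4L was lower than in both (-0.36 and -0.38, adjusted p = 0.00265 and 0.00220). HSPA4 (APG-2), a nucleotide exchange factor like HSPH1, was not called (0.01 and 0.10, adjusted p = 0.872 and 0.198).

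The 10 genes of the HSP90 group gave 1 higher and 3 lower against parent, and 2 higher and 1 lower against NC. HSP90AB1, the constitutive cytosolic HSP90, was at 793 ± 4.30 FPKM in parent, 736 ± 49.2 FPKM in NC and 758 ± 13.7 FPKM after miR-4711-5p treatment and was not called (log2 fold change -0.07 and 0.04, adjusted p = 0.329 and 0.526). FKBP5, an immunophilin partner of HSP90, was lower than in both controls (-0.59 and -0.31, adjusted p = 0.000834 and 0.0144). The same group gave 3 higher and 1 lower against parent on the scale of summed FPKM.

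J-domain proteins moved in both directions. Of 13 genes other than DNAJB1, 5 were higher and 2 lower against parent, and 4 were higher and 1 lower against NC. DNAJB4, a close relative of DNAJB1, was at 12.2 and 13.3 FPKM in parent, 15.4 and 15.9 FPKM in NC and 7.41 and 7.51 FPKM after miR-4711-5p treatment. It was lower than in both (log2 fold change -0.70 and -0.98, adjusted p = 0.000154 and 3.65e-05), although NC was above parent (0.28, adjusted p = 0.0165). DNAJB5 was higher (0.90 and 0.45, adjusted p = 0.000390 and 0.00887), and so were DNAJB6, which suppresses aggregation (0.47 and 0.31, adjusted p = 0.00159 and 0.0100), and the ribosome-associated DNAJC2 (0.46 and 0.37, adjusted p = 0.00231 and 0.00674).

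Of the 8 other HSP70 co-chaperones, 5 were lower and none higher against parent, and 2 were lower and none higher against NC (1 and 0 higher at an unadjusted p under 0.05). These 2 were BAG1, a BAG-domain relative of BAG3 (log2 fold change -0.43 and -0.32, adjusted p = 0.000957 and 0.00386), and ST13 (HIP), which stabilizes HSP70 bound to ADP (-0.33 and -0.42, adjusted p = 0.000863 and 0.000335). The median of the list against parent was -0.25. When scaled to summed FPKM, 1 was higher and 3 were lower against parent.

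Among the 7 other small heat shock proteins, 5 were below the limit of 1 FPKM. HSPB8, which forms a complex with BAG3, was at 16.6 and 15.4 FPKM in parent, 14.6 and 16.2 FPKM in NC and 30.3 and 30.4 FPKM after miR-4711-5p treatment. The treated libraries were thus above all controls, while its partner BAG3 and its relative HSPB1 were below parent. HSPB8 was 1.90-fold higher than in parent (log2 fold change 0.89, adjusted p = 6.92e-05) and 1.97-fold higher than in NC (0.93, adjusted p = 6.45e-05).

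The 14 genes of the chaperonin CCT and of prefoldin, which fold actin and tubulin, gave 2 higher and 4 lower against parent and 3 higher and 2 lower against NC. VBP1 (-0.41 and -0.52, adjusted p = 0.00519 and 0.00200) and CCT7 (-0.32 and -0.15, adjusted p = 0.000618 and 0.0205) were lower by log2 fold change than in parent and NC, and CCT7 was not called against NC on the scale of summed FPKM (adjusted p = 0.0788). PFDN2 (0.37 and 0.49, adjusted p = 0.00962 and 0.00326) and PFDN1 (0.18 and 0.25, adjusted p = 0.0218 and 0.00591) were higher than in both. The counts turned with the scale, since summed FPKM gave 4 higher and 3 lower against parent, 6 higher and 1 lower against NC, and 0 in either direction in NC against parent.

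Among the 10 other mitochondrial chaperones and proteases, 6 were below parent in NC and none was above it (0 at an unadjusted p under 0.05 as well), whereas 4 were above and 1 was below NC after miR-4711-5p treatment. Against parent 1 was higher and 3 were lower after the treatment. When scaled to summed FPKM, 5 were higher and 0 lower against parent, as against NC, and 3 were below parent in NC. GRPEL1, the nucleotide exchange factor of the mitochondrial HSP70, had a log2 fold change of -0.69 in NC against parent (adjusted p = 0.000390) and of 0.85 with miR-4711-5p against NC (adjusted p = 1.86e-05), beside -0.82 and 0.78 for HSPE1. HSPA9, the mitochondrial HSP70 itself, was lower in NC than in parent (-0.15, adjusted p = 0.0300) and higher after miR-4711-5p treatment than in NC (0.17, adjusted p = 0.0147), and on the scale of summed FPKM the former was not called (adjusted p = 0.219). HTRA2, a protease of the intermembrane space, was lower after miR-4711-5p treatment than in both (-0.32 and -0.25, adjusted p = 0.0123 and 0.0355), and neither call held on the scale of summed FPKM (0.0651 and 0.0720).

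In the endoplasmic reticulum, 3 of 13 chaperones were called higher and 6 lower after miR-4711-5p treatment, with the same counts against parent and NC. The genes called higher were not all the same in the 2 comparisons. HSPA5 (BiP), the HSP70 of this compartment, was at 305 ± 3.77 FPKM in parent, 302 ± 13.0 FPKM in NC and 342 ± 5.88 FPKM after miR-4711-5p treatment and was higher than in both (log2 fold change 0.17 and 0.18, adjusted p = 0.0200 and 0.0163), as was its J-domain partner DNAJB11 (0.23 and 0.20, adjusted p = 0.0140 and 0.0227). The lectin chaperone CANX was lower (-0.39 and -0.41, adjusted p = 0.000592 and 0.000525), and so were CALR (-0.18 and -0.19, adjusted p = 0.00783 and 0.00738) and PDIA4 (-0.20 and -0.14, adjusted p = 0.00926 and 0.0399). After scaling to summed FPKM, 4 were higher and 1 lower against parent, and PDIA4 (adjusted p = 0.236) and CALR (0.317) were no longer called there. Against NC the counts became 3 higher and 4 lower, and PDIA4 lost its call as well (adjusted p = 0.125).

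**Figure D3:**
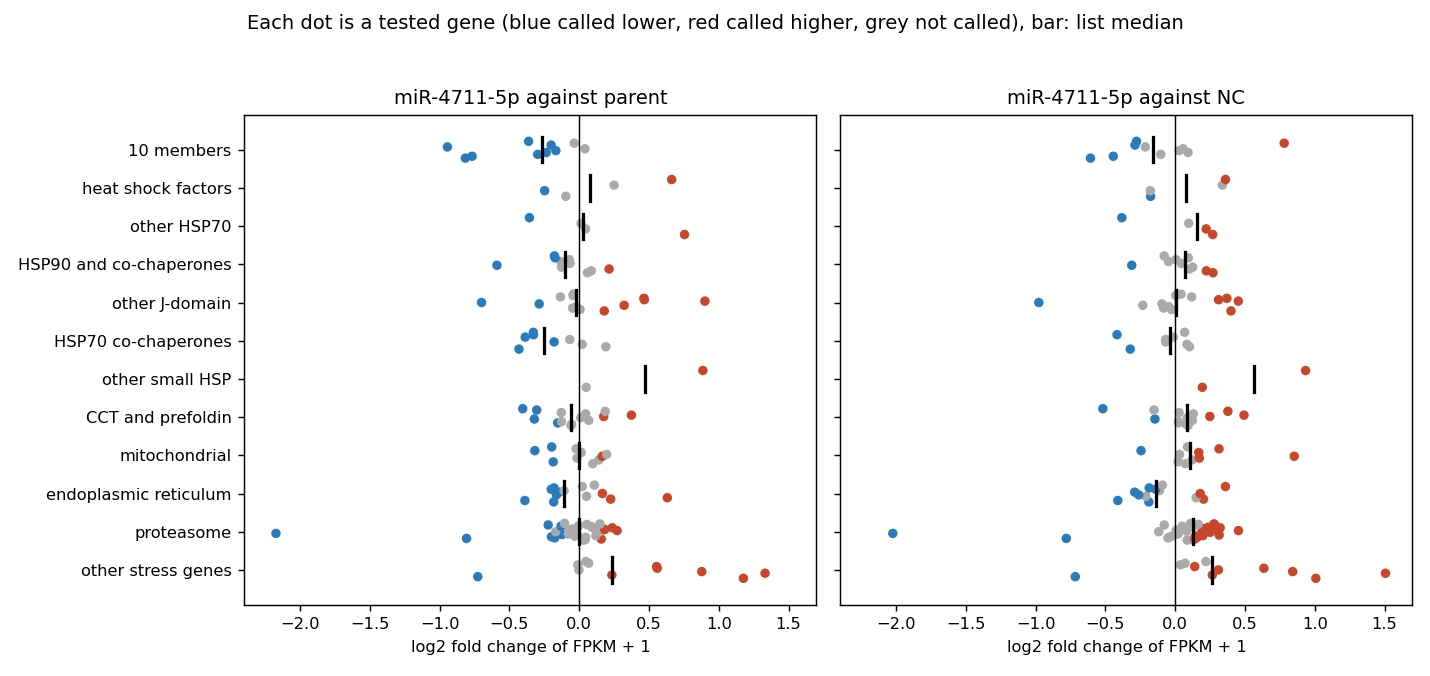
limma log2 fold changes of FPKM + 1 of every tested gene on each list, with miR-4711-5p against parent (left) and against NC (right); dots are genes, colours show the call and bars the list median. The median of the 10 members is -0.27 against parent, that of the other stress genes 0.23, and PSMB6 is the dot at -2.17 in the proteasome row.

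The proteasome genes other than PSMB6 differed between the controls in their counts. Of 30 subunits of the 20S core and the 19S regulator, 5 were above and 6 below parent after miR-4711-5p treatment, and 14 were above and 1 was below NC. NC was lower than parent for 8 and higher for none (0 at an unadjusted p under 0.05). Scaling to summed FPKM gave other counts: 17 were higher and 1 lower against parent, 20 were higher and 1 lower against NC, and NC was lower than parent for 2. PSMA4, a structural subunit of the outer ring, was lower than in both (log2 fold change -0.81 and -0.78, adjusted p = 5.55e-05 and 7.60e-05).

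The other catalytic subunits stood apart from PSMB6. PSMB5 was not called (-0.08 and 0.02 on the log2 scale, adjusted p = 0.212 and 0.757), and PSMB7 was higher than in both controls (0.14 and 0.19, adjusted p = 0.0348 and 0.0136). The regulator subunits PSMC4 (0.27 and 0.45, adjusted p = 0.00379 and 0.000436) and PSMD12 (0.24 and 0.32, adjusted p = 0.0437 and 0.0151) were higher by log2 fold change than in parent and NC.

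Of 11 further genes, which comprise stress-responsive genes and the regulators DDI2 and NFE2L1 of proteasome genes, 6 were higher and 1 lower against parent, and 7 were higher and 1 lower against NC, with medians of 0.23 and 0.27. GADD45B, which responds to several kinds of stress, was at 7.84 and 7.75 FPKM in parent, 7.92 and 5.80 FPKM in NC and 23.2 and 19.3 FPKM after miR-4711-5p treatment. It was higher than in both (log2 fold change 1.33 and 1.51, adjusted p = 0.000298 and 0.000198). ATF3, a transcription factor of the stress response, was higher at low levels, at 1.96 ± 0.218 FPKM (parent), 2.32 ± 0.232 FPKM (NC) and 5.68 ± 0.166 FPKM (miR-4711-5p; 1.18 and 1.01, adjusted p = 0.000122 and 0.000286). HMOX1, the inducible heme oxygenase, was at 4.37 and 3.72 FPKM in parent, 3.81 and 4.55 FPKM in NC and 8.01 and 8.50 FPKM after miR-4711-5p treatment (0.88 and 0.84, adjusted p = 0.000530 and 0.000722).

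DDI2, the protease that activates NFE2L1, the factor that induces proteasome genes, was the gene of this list that was lower. It was at 11.8 and 12.5 FPKM in parent, 12.7 and 11.4 FPKM in NC and 6.24 and 7.70 FPKM after miR-4711-5p treatment (log2 fold change -0.73 and -0.72, adjusted p = 0.00104 and 0.00127). Its longest 3′ UTR, of 9254 bases, holds 3 seed sites, all of the 7mer types. Counted in the longest 3′ UTR, 18.5% of the 10593 tested genes with a 3′ UTR had a site, and UTR length was not taken into account. Sites of single genes were read only for the members, PSMB6 and DDI2, and not for other lowered genes on the lists. The matches do not show that DDI2 was bound.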

How the data were processed

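RNA was sequenced from BxPC-3 cells in 3 groups of 2 libraries. The authors prepared stranded mRNA libraries, mapped the single-end reads with TopHat (build hg19), and obtained FPKM by Cuffnorm. The submitters' processing notes name TopHat2 2.1.1, Bowtie2 2.3.5.1, SAMtools 1.2 and Cufflinks 2.2.1, and the versions in the methods of the study differ for some of these. The annotation, strand option and normalization option were not given in the sources used here. NC-1 was taken as the negative control duplex from its name. The deposited FPKM of 26255 symbols were used as they are.

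The 12040 genes whose mean reached 1 FPKM were tested on log2(FPKM + 1) with limma 3.58.1 in R 4.3.3 (all groups in one fit, 3 residual and 4.15 prior degrees of freedom, trend, two-sided, Benjamini-Hochberg over all genes, threshold 0.05). "Called" means past this threshold. Log2 fold changes on this scale understate those of low genes; fold values are ratios of mean FPKM. An exact permutation test of 2 against 2 cannot go below p = 0.333. On simulated data, limma found 85.0% of the genes changed by 0.8 (log2) and 46.4% of those changed by 0.4 in miR-4711-5p against parent, with 2.90% false calls (12040 genes, 200 changed, 5 runs). The simulated noise was independent between genes, and 5230 genes were called in the real comparison. These rates therefore need not hold for the real data.

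The members and the lists were chosen with earlier results of these data known. Named genes were the members, PSMB6, PSMB5, PSMB7, HSF1, HSF2, HSP90AB1, HSPA4, HSPA9 and HSPA5, and per list up to 4 genes with the largest change against parent among those called in the same direction against parent and NC. HSPA6 and HSBP1 were named outside this rule, HSPA6 after its values were seen. Alternatives were pseudocount 0.1, no filter or a mean of 5 FPKM, 2 other scalings, only the groups compared, a replicate block, an additional 1.5-fold change, and leaving out each library. Python 3.11.15, pandas 2.3.3, pysam 0.24.0 and matplotlib 3.10.9 were used.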

Additional observations from a re-analysis of the deposited data

How the results depend on the processing

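The direction of every called member was kept under all alternatives. Members called in miR-4711-5p against parent numbered 8, 3 with an additional 1.5-fold change, and 5 to 7 with each library left out. Against NC they numbered 5, 2 with the 1.5-fold change, and 5 to 6 with a library left out. In NC against parent they numbered 7, 4 with no filter, 2 with the 1.5-fold change, and 3 to 6 with a library left out. Of the other listed genes, 59 were called against parent, 13 with the 1.5-fold change, and 30 to 64 with a library left out. Against NC 60 were called, 11 with the 1.5-fold change, and 30 to 58 with a library left out. In NC against parent 37 were called, 23 when scaled to summed FPKM, 24 with only the 2 groups compared, 3 with the 1.5-fold change, and 13 to 24 with a library left out. In miR-4711-5p against parent, HSPA1A and HSPA1B also lost their calls with no filter and with only the 2 groups compared, and HSPA1B with median-of-ratios scaling. The added fold limit lowers such counts by construction, and the cause of the other shifts was not tested.

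Values that changed sign were not called under any of these settings. On the scale of summed FPKM these were HSPA8 in NC against parent (0.0701) and HSPE1 in miR-4711-5p against parent (0.10). With a library left out, HSPE1 against parent ranged from -0.0930 to 0.0221 and was 0.00326 without parent replicate 2 and 0.0221 without miR-4711-5p replicate 1, and HSPA1B against NC ranged from -0.0277 (without miR-4711-5p replicate 1) to 0.0818. On the scale of summed FPKM all genes split into 2916 higher and 2082 lower (2214 and 2549 as deposited) against NC, and into 2349 and 1002 (1456 and 1823) in NC against parent.

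The deviations of libraries with equal replicate numbers were nearly uncorrelated over the tested genes (correlations 0.06, 0.00 and -0.01). Whether such libraries were prepared together is not stated in the labels, and these values cannot show it. With the replicate block, HSPA1B lost its calls in miR-4711-5p against parent (adjusted p = 0.0617) and in NC against parent (0.0573), and no other member changed. The depth in reads is unknown, and 2 libraries per group of 1 cell line limit the precision.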
